A study of Mus musculus with 8 samples.

Results

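The 10 genes described here are markers of the marrow stroma and of adipocytes: Lepr, Kitl, Ebf3, Foxc1, Adipoq, Fabp4, Lpl, Plin1, Pparg and Cebpa. They were taken by symbol from the 43346 genes of the count table, and each symbol matched a single Ensembl gene. RNA was sequenced from osteocyte-enriched fractions of bone (osteocytes are the cells that live inside the mineralized matrix) of C57BL/6 mice aged 12 weeks, with no treatment stated. There were 3 libraries from the frontal bone, 2 from the parietal bone and 3 from the femur, and the frontal and parietal libraries together are called calvaria (5 libraries). Each library is named here by its bone and its label's number (1, 2 or 4). The study compared osteocytes of the skull vault with those of a long bone. Whether each library is 1 animal or a pool is not stated in the labels, so the spread behind every p-value is that between these libraries and may be technical in part.

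In mouse bone marrow, a network of perivascular reticular cells carries the leptin receptor and secretes CXCL12 and stem cell factor (the product of Kitl), which blood stem cells need. The transcription factors EBF3 and FOXC1 maintain these cells. The same cells are a source of marrow adipocytes, whose formation is driven by PPARγ and C/EBPα, and adiponectin (Adipoq) is known to be made by stromal cells of this lineage as well as by fat-filled adipocytes. Perilipin 1 (Plin1) coats the lipid droplet and is a marker of the mature fat cell.

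The libraries held 6259229 to 13461622 gene counts, and the 10 genes took 0.0528 to 0.0974% of them. All 8 osteocyte markers had counts in every bone, but their summed level was 719 to 1419 CPM (CPM is the read count scaled to library size, here on the TMM scale, which corrects for composition) in calvaria, against 23883 to 49466 CPM in femur. Most of the femur sum was Dmp1 alone, at 19530 to 43468 CPM in femur and 355 to 611 CPM in calvaria. The median log2 fold change of the 8 markers, calvaria over femur, was -3.73. Osteoblast markers summed to 3482 to 19145 CPM in calvaria and 41041 to 57694 CPM in femur, with frontal library 2 at 19145 CPM against 5820 and 3482 CPM in the other frontal libraries. Col1a1 and Col1a2 made up most of these sums. Other osteoblast markers, Bglap, Bglap2 and Ibsp, overlapped between calvaria and femur (Ibsp at 728 to 1483 CPM and 891 to 1413 CPM). Erythroid markers summed to 59606 to 96544 CPM in calvaria and 11359 to 26537 CPM in femur, late granulocyte markers to 53736 to 83508 CPM in calvaria and 16194 to 40949 CPM in femur, and endothelial markers to 251 to 318 CPM in calvaria and 594 to 718 CPM in femur. Slc4a1 among the erythroid, Ltf and Ngp among the late granulocyte and Esam among the endothelial markers overlapped. Chondrocyte markers, mostly Col2a1 in femur, summed to 12.9 to 26.3 CPM in calvaria and 263 to 808 CPM in femur. Periosteum and fibroblast markers summed to 114 to 208 and 399 to 487 CPM, though Pi16, Col14a1 and Dpt overlapped. Smooth muscle and pericyte markers summed to 73.9 to 135 and 197 to 310 CPM, though Tagln and Kcnj8 overlapped and Acta2 was higher in calvaria. The fractions thus differed in the blood, bone, cartilage and vessel RNA they held along with bone of origin. The part of that difference in the results on stroma and fat genes was not tested. In such bulk samples fewer cells of a type and less RNA per cell cannot be told apart.

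Between calvaria and femur, 4 of the genes were higher in calvaria (Ebf3, Adipoq, Lpl and Pparg), 3 were lower (Kitl, Foxc1 and Cebpa), and Lepr and Fabp4 did not pass the test. Plin1 had too few counts to be tested, so 9 of the 10 genes entered the fit. A call is an adjusted p under 0.05 by edgeR's quasi-likelihood test with Benjamini-Hochberg adjustment over 15511 genes. Of all those genes 61.0% were called in this comparison (29.6% higher and 31.4% lower), so 7 calls among 9 genes is not far from the background. The libraries of the 2 sides did not overlap for 6 of the 9 genes, against 53.5% of all genes tested. The median log2 fold change of the 9 genes was 0.14, and that of all genes tested was 0.01.

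**Figure D1:**
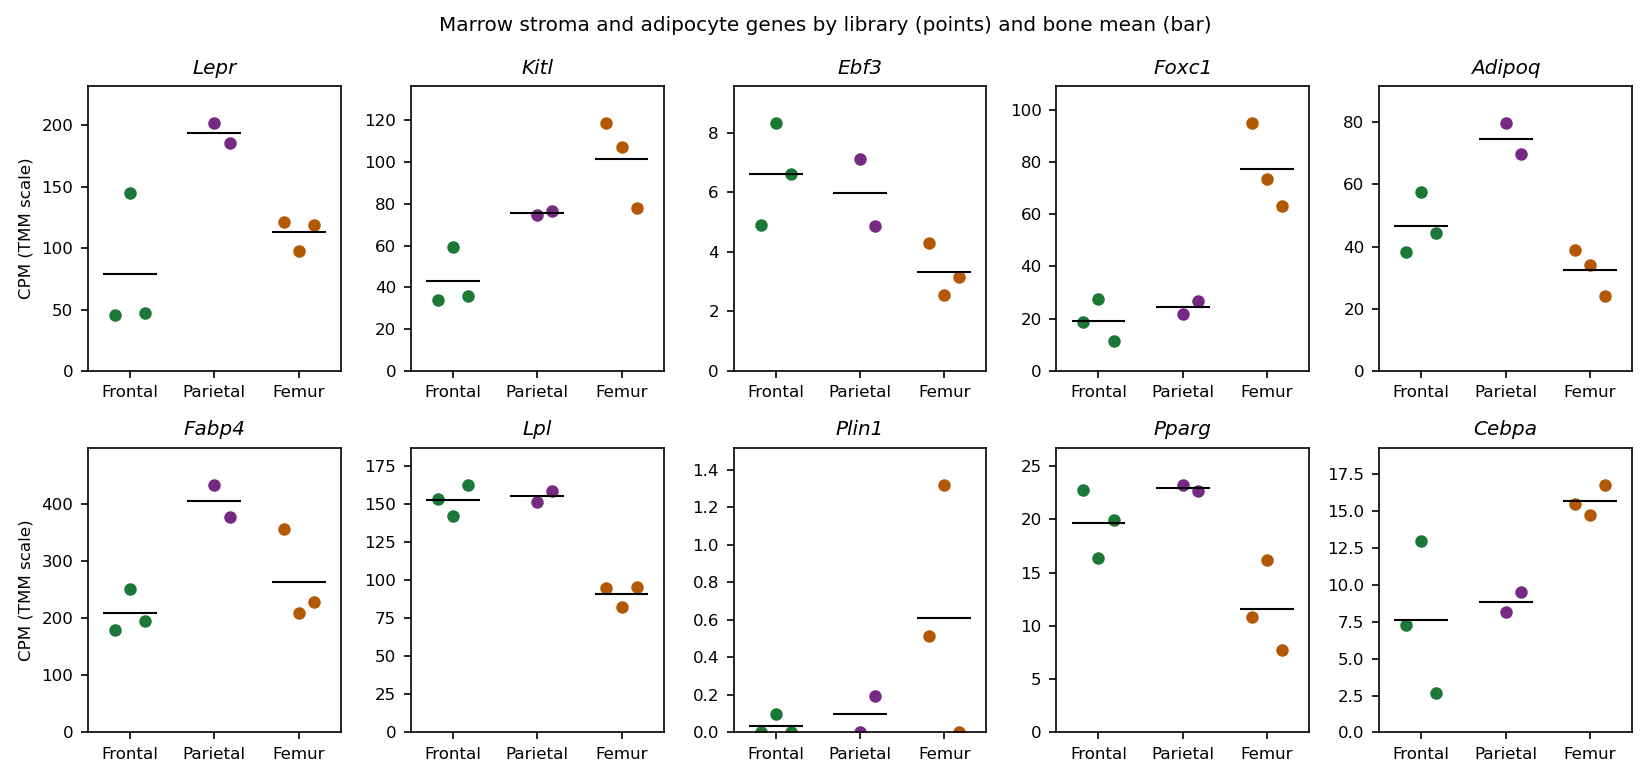
Level of each of the 10 genes in each library, in CPM on the TMM scale (vertical axes start at 0 and differ between panels); points are libraries and bars are means per bone. Foxc1 sits between 11.5 and 27.7 CPM in calvaria and between 63.4 and 94.9 CPM in femur, while Lpl sits between 142 and 163 CPM in calvaria and between 82.3 and 95.2 CPM in femur.

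Among the genes of the stromal niche, Foxc1, encoding the forkhead factor of reticular cells (chromosome 13, 31806633 to 31812476, GRCm38), showed the most pronounced difference of the 9. Foxc1 stood at 18.6, 27.7 and 11.5 CPM in frontal libraries 1, 2 and 4 and at 21.7 and 27.0 CPM in parietal libraries 2 and 4, against 94.9, 73.4 and 63.4 CPM in femur libraries 1, 2 and 4. Every calvarial library was below every femur library. The log2 fold change was -1.82 ± 0.23 (SE, adjusted p = 3.51e-05) for calvaria, -1.98 ± 0.27 for frontal and -1.66 ± 0.30 for parietal bone. Foxc1 stayed lower, and called, in all 3 of these comparisons under each alternative processing tried, the calvarial log2 fold change nearest to 0 being -1.18. Its paralog Foxc2, another forkhead factor, fell by 2.92 on the log2 scale in calvaria (adjusted p = 5.92e-07).

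Kitl, which encodes stem cell factor, the ligand of the KIT receptor (chromosome 10, 100015630 to 100100416), was also lower in calvaria. Its levels were 33.8, 59.4 and 35.8 CPM in frontal and 74.8 and 76.7 CPM in parietal bone, against 119, 107 and 77.8 CPM in femur. All calvarial libraries lay below all femur libraries, although the parietal ones came within 1.09 CPM of femur library 4. For calvaria the log2 fold change was -0.82 ± 0.19 (adjusted p = 0.00288), and it was -1.23 ± 0.22 for frontal bone (adjusted p = 0.000599). In parietal bone Kitl was at -0.42 ± 0.24 and was not called (adjusted p = 0.163). It passed there once each library's trend with gene length and GC content was taken out (-0.69, adjusted p = 0.0142). Kit, the receptor gene, which marks blood progenitors and mast cells, was lower in calvaria too, at 37.8, 40.3 and 40.2 CPM in frontal and 27.1 and 28.8 CPM in parietal bone, against 86.8, 75.1 and 104 CPM in femur. Its log2 fold change was -1.42 ± 0.13 (adjusted p = 2.53e-06).

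Lepr, the leptin receptor that names these stromal cells (chromosome 4, 101717404 to 101815352), varied widely within the frontal bone. It stood at 45.7, 145 and 47.3 CPM in frontal and at 202 and 185 CPM in parietal bone, against 121, 98.0 and 119 CPM in femur. Frontal library 2 was 3.17 times the lowest frontal library, and it lay above the femur range while the other 2 frontal libraries lay below it. Both parietal libraries were above every other library. The log2 fold change was 0.14 ± 0.37 for calvaria (adjusted p = 0.762), -0.50 ± 0.41 for frontal (adjusted p = 0.327) and 0.78 ± 0.44 for parietal bone (adjusted p = 0.167). Without frontal library 2 Lepr was called lower in frontal bone (-1.27, adjusted p = 3.44e-05) and higher in parietal bone (0.78, adjusted p = 0.000497), and its calvarial value turned to -0.24 (adjusted p = 0.091). The parietal call was also made with only the parietal and femur libraries in the fit (0.79, adjusted p = 0.00132). Among the 9 genes, 7 were highest in library 2 of the 3 frontal libraries, the one with the highest osteoblast marker sum of them, and the part of that in the Lepr values was not tested.

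Ebf3, encoding the early B cell factor of reticular cells (chromosome 7, 137193673 to 137314445), was, per kilobase, the lowest of these 4 stromal genes in each bone and was higher in calvaria. It was at 4.90, 8.32 and 6.60 CPM in frontal and 7.11 and 4.85 CPM in parietal bone, against 4.30, 2.55 and 3.15 CPM in femur. The lowest calvarial library was 0.552 CPM above the highest femur library, so the groups were separate but close. Its log2 fold change was 0.95 ± 0.28 (adjusted p = 0.0117) for calvaria, and the call was lost without parietal library 2 (0.78, adjusted p = 0.0546) or femur library 2 (0.77, adjusted p = 0.0678). It was 1.02 ± 0.31 (adjusted p = 0.0141) for frontal bone, lost without frontal library 2 (0.82, adjusted p = 0.0587) or femur library 2 (0.84, adjusted p = 0.0679), and 0.88 ± 0.33 (adjusted p = 0.0404) for parietal bone. The parietal call was lost under 6 of 17 alternatives, among them DESeq2 (adjusted p = 0.052) and the fits without parietal library 2 (0.54, adjusted p = 0.331), frontal library 4 (0.84, adjusted p = 0.0597), femur library 2 (0.70, adjusted p = 0.141) or femur library 4 (0.85, adjusted p = 0.0835). Antisense genes overlap Ebf3, with 355 bases of shared exon for Gm45278, and without a stated strand setting reads from those bases cannot be told apart. Ebf1, a paralog with a role in B cells and in stroma, was higher in calvaria as well (0.98 ± 0.15, adjusted p = 0.000151), with 51.3 to 71.8 CPM in calvaria and 25.6 to 35.0 CPM in femur, and Ebf2 was at 0.120 to 1.60 CPM and not called (adjusted p = 0.734).

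Other genes of the marrow stroma were called in both directions, at a share close to that of all genes. Of 19 such genes 18 were tested, with 6 higher in calvaria, 5 lower and 7 not called, where 29.6% of all genes were higher and 31.4% lower. Their median log2 fold change was 0.16, against 0.01 over all genes. Cxcl12, the chemokine that defines the reticular cells, was at 1309, 1576 and 1370 CPM in frontal and 1747 and 1625 CPM in parietal bone, against 706, 559 and 699 CPM in femur. Every calvarial library was above every femur library (log2 fold change 1.24 ± 0.13, adjusted p = 1.02e-05). The others that were higher were Angpt1 (1.54), Ebf1 (0.98), Il7 (0.96), Gas6 (0.83) and Esm1 (0.79). Nes, an intermediate filament gene, was lower by far (-5.17 ± 0.21), as was the chondroitin sulfate proteoglycan gene Cspg4 (-5.37 ± 0.23), both also known outside the reticular cells. Csf1, the macrophage growth factor, fell by 1.74 on the log2 scale. Chrdl1 and Agt were the remaining lower genes (-0.66 and -0.40). The Agt call was lost under 11 of 16 alternatives, among them the fits without frontal library 1 or 4, parietal library 2 or 4, or femur library 1 (adjusted p = 0.0589 to 0.179), and that of Esm1 once each library's trend with length and GC was taken out (0.17, adjusted p = 0.336). Angpt1, Il7, Gas6, Esm1, Chrdl1 and Agt are named here after their values were seen, to complete the count. So are the 7 not called, Pdgfra, Pdgfrb, Vcam1, Grem1, Snai2, Igfbp4 and Igfbp5, each with overlap between calvaria and femur. Vcam1 was at 378 to 544 CPM in calvaria and 421 to 437 CPM in femur, and Pdgfra at 10.1 to 31.6 and 24.3 to 37.1 CPM. In the same libraries Lepr counts per Cxcl12 count were 0.0345 to 0.115 in calvaria and 0.170 to 0.175 in femur, with no overlap. Foxc1 counts per Lepr count were 0.108 to 0.408 in calvaria and 0.532 to 0.783 in femur, also without overlap. Kitl and Ebf3 counts per Lepr count overlapped, as did Kitl counts per Kit count. Such ratios were not taken over all genes.

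**Figure D2:**
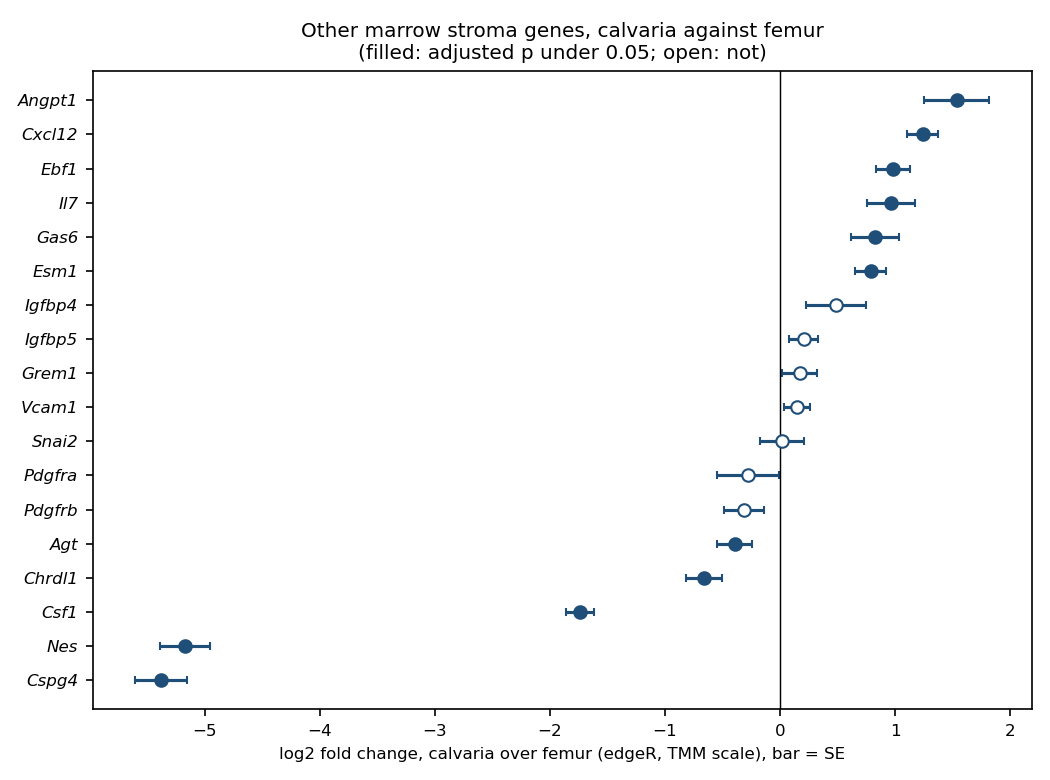
Log2 fold change of calvaria over femur for the 18 tested genes of the other marrow stroma list, with SE; filled points passed an adjusted p under 0.05. Cxcl12 (1.24) and Angpt1 (1.54) sit at the top, Nes (-5.17) and Cspg4 (-5.37) at the bottom.

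Among the adipocyte genes, Adipoq, which encodes the secreted hormone adiponectin (chromosome 16, 23146536 to 23158028), was higher in calvaria. Adipoq was at 38.1, 57.5 and 44.2 CPM in frontal and 79.7 and 69.7 CPM in parietal bone, against 39.0, 34.1 and 24.0 CPM in femur. Frontal library 1 lay below femur library 1, so calvaria and femur overlapped by that pair, while the parietal libraries were above all others. The log2 fold change was 0.87 ± 0.18 for calvaria (adjusted p = 0.00148), 0.53 ± 0.20 for frontal bone (adjusted p = 0.0397) and 1.21 ± 0.22 for parietal bone (adjusted p = 0.000587). The frontal call was lost under 8 of 17 alternatives, among them the fits without frontal library 2 (0.36, adjusted p = 0.15) or femur library 4 (0.35, adjusted p = 0.133), and those without frontal library 4, either parietal library or femur library 2 (adjusted p = 0.058 to 0.0756). With the length and GC trend of each library removed, no Adipoq call was left: the values were 0.18 for calvaria (adjusted p = 0.45), -0.04 for frontal and 0.40 for parietal bone (adjusted p = 0.176).

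Plin1, the lipid droplet protein of the mature fat cell (chromosome 7, 79720218 to 79732903), was close to absent from all 3 bones. Its counts were 0, 1 and 0 in frontal and 0 and 2 in parietal bone, against 3, 14 and 0 in femur. Most of the femur counts thus came from femur library 2, and the groups overlapped at 0. Summed over libraries it had 3 counts in calvaria and 17 in femur, a femur-to-calvaria ratio of 10.5 (95% exact interval 3.03 to 55.9, counting error only). A fit with no filter on low counts gave adjusted p-values of 0.0143 for calvaria, 0.0352 for frontal and 0.158 for parietal bone, but its fold change for so few counts depends on the prior count.

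Adipoq and Plin1 are both used as adipocyte genes, yet lay far apart per kilobase (44.8 and 0.0206 CPM per kb in calvaria), and their RefSeq promoter windows (GRCm38.p6, 250 bases before to 50 after the start) are printed here so that the letters searched can be seen. Both strands were searched for the C/EBP motif (TTGCNNAA), the forkhead motif (TGTTTAC), the TATA box (TATAAA), the GC box (GGGCGG), the direct repeat known as the PPAR element, and the EBF palindrome. Capitals mark matches. The Adipoq window (chr16:23146286-23146585, plus strand) held none of the 6. The Plin1 window (chr7:79732727-79733026, minus strand) held the C/EBP letters 2 times, at 187 and 58 bases before the start. That motif was in 10.8% of all 32851 RefSeq windows, the PPAR element in 0.381%, the EBF palindrome in 0.904%, the forkhead motif in 3.65%, the TATA box in 13.6% and the GC box in 35.7%.
Adipoq: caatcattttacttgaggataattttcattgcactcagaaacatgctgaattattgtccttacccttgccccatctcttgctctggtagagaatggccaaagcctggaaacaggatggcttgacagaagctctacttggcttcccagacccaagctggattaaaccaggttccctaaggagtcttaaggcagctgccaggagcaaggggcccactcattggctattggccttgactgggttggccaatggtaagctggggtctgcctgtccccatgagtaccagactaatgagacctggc
Plin1: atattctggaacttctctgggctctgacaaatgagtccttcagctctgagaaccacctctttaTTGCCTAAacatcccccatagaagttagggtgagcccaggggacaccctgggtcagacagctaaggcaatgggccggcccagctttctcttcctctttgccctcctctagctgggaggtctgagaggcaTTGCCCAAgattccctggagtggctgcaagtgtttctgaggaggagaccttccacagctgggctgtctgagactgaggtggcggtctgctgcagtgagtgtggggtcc

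Other adipocyte markers behaved unlike Adipoq. Cfd, which encodes adipsin, a complement protease secreted by fat, was at 0.478, 2.39 and 2.11 CPM in frontal and 0.917 and 4.37 CPM in parietal bone, against 46.4, 27.8 and 8.05 CPM in femur. All calvarial libraries were below all femur libraries (log2 fold change -3.70 ± 0.67, adjusted p = 0.00158), in the direction opposite to Adipoq. Cidec, a droplet fusion protein, had 5 counts in calvaria and 44 in femur (-3.90 ± 0.71, adjusted p = 0.000537). Retn, encoding resistin, was at 0.281 to 1.45 CPM in calvaria and 1.28 to 4.64 CPM in femur and was not called (-1.04 ± 0.52, adjusted p = 0.102), though it passed once the trend with length and GC was taken out (-1.58, adjusted p = 0.0226). Lep, the leptin gene, had 12 counts in calvaria and 18 in femur and was not tested. Retn and Lep are named as the remaining adipocyte markers. Per count of Cfd there were 16.0 to 86.8 Adipoq counts in calvaria and 0.841 to 2.99 in femur. The 6 adipocyte markers together summed to 40.0 to 82.2 CPM in calvaria and 34.3 to 92.2 CPM in femur, ranges that overlap, none of them being at 0 in either.

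**Figure D3:**
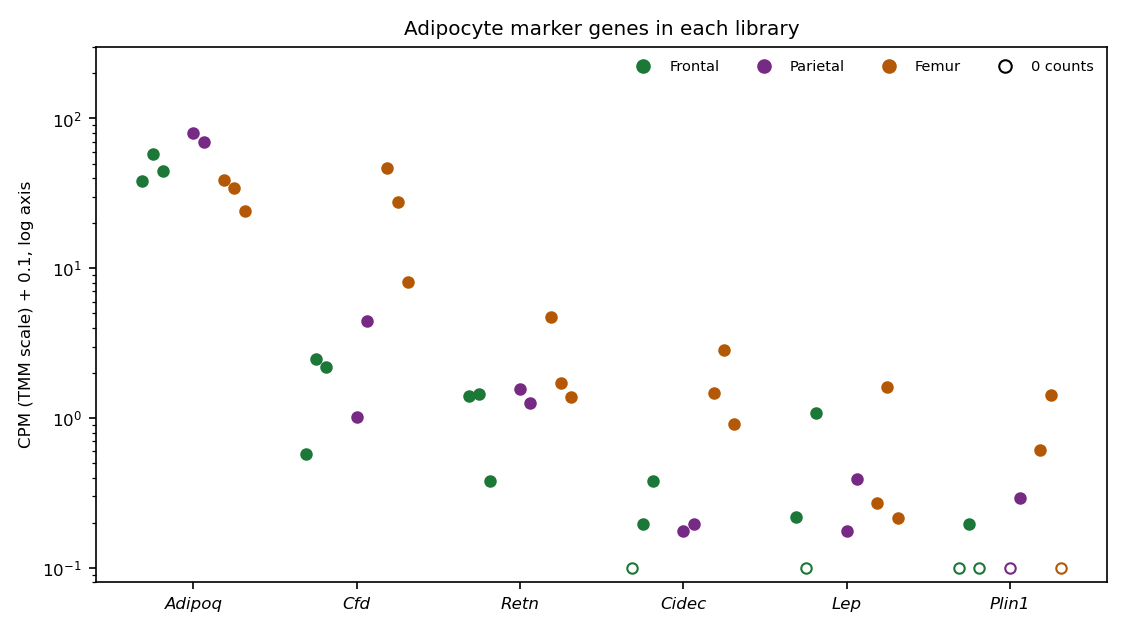
CPM on the TMM scale plus 0.1 (log axis) of 6 adipocyte markers in each library; open points had 0 counts. Adipoq lies between 24.0 and 79.7 CPM in all libraries, Cfd lies at 4.37 CPM or less in calvaria and at 8.05 CPM or more in femur, and Plin1 had no count in 4 of the 8 libraries.

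Lpl, encoding lipoprotein lipase, which frees fatty acids from circulating triglyceride (chromosome 8, 68880491 to 68907448), varied by at most 1.16-fold between libraries of a bone. It was at 153, 142 and 163 CPM in frontal and 152 and 158 CPM in parietal bone, against 94.9, 82.3 and 95.2 CPM in femur. The lowest calvarial library was well above the highest femur library, and the log2 fold change was 0.76 ± 0.11 for calvaria (adjusted p = 9.87e-05), 0.75 ± 0.12 for frontal and 0.77 ± 0.13 for parietal bone. Lpl was called higher in these 3 comparisons under each alternative tried. Of 12 tested partners of the lipase, 1 was higher in calvaria and 8 were lower, where 29.6% of all genes were higher and 31.4% lower, and their median log2 fold change was -0.71 against 0.01. Furin, a protease that cleaves the lipase, fell by 2.61 on the log2 scale, and the receptor genes Lrp1 and Vldlr fell by 1.94 and 2.03. Gpihbp1, which carries the lipase to the capillary wall, was not called (-0.34 ± 0.20, adjusted p = 0.166), although it passed without femur library 2 (-0.53, adjusted p = 0.0477). The lipase is also made by macrophages, whose 8 markers summed to 654 to 893 CPM in calvaria and 466 to 544 CPM in femur. Among them Csf1r (107 to 157 and 95.4 to 145 CPM) and Mrc1 (30.4 to 85.2 and 36.1 to 51.6 CPM) overlapped. The part of the macrophage markers in the Lpl values was not tested.

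Fabp4, the cytosolic fatty acid carrier of adipocytes, endothelium and macrophages (chromosome 3, 10204088 to 10208576), differed between the calvarial bones. It stood at 180, 251 and 195 CPM in frontal and at 435 and 378 CPM in parietal bone, against 356, 209 and 229 CPM in femur. Parietal libraries were above all femur libraries, and frontal ones overlapped with them. Accordingly calvaria as a whole did not pass (0.14 ± 0.18, adjusted p = 0.526), nor did frontal bone (-0.34 ± 0.20, adjusted p = 0.172), and parietal bone did (0.62 ± 0.22, adjusted p = 0.0317). The parietal call was lost under 6 of 17 alternatives, among them the fits without parietal library 2 (0.48, adjusted p = 0.215), parietal library 4 (0.67, adjusted p = 0.0868), femur library 2 (0.47, adjusted p = 0.12), femur library 4 (0.52, adjusted p = 0.0887) or frontal library 4 (0.58, adjusted p = 0.0551). The calvarial value passed without femur library 1 (0.39, adjusted p = 0.0378) and was -0.01 without femur library 2. Cd36, the membrane fatty acid transporter, was higher in all calvarial libraries, at 216 to 385 CPM in calvaria and 174 to 202 CPM in femur (0.78 ± 0.15, adjusted p = 0.000628), and the carrier Fabp5 was not called (-0.11 ± 0.11, adjusted p = 0.402).

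Pparg, the master factor of fat cell formation (chromosome 6, 115360951 to 115490399), was higher in calvaria. It was at 22.7, 16.3 and 19.9 CPM in frontal and 23.2 and 22.6 CPM in parietal bone, against 10.8, 16.1 and 7.70 CPM in femur. The groups did not overlap, but frontal library 2 was only 0.203 CPM above femur library 2. The log2 fold change was 0.86 ± 0.23 (adjusted p = 0.00627) for calvaria, 0.75 ± 0.25 (adjusted p = 0.0232) for frontal and 0.98 ± 0.27 (adjusted p = 0.00894) for parietal bone. The calvarial call held under all 16 alternatives, while the frontal call was lost under 5 of 17, among them the fits without frontal library 1 (0.64, adjusted p = 0.0868), frontal library 4 (adjusted p = 0.0526), femur library 1 (adjusted p = 0.0618) or femur library 4 (0.52, adjusted p = 0.0734), and the parietal call was lost without parietal library 2 (0.93, adjusted p = 0.0577). An antisense gene, Gm44079, overlaps Pparg with 0 bases of shared exon. The Pparg paralogs Ppara and Ppard were below 4 CPM in every library and were not called (adjusted p = 0.122 and 0.202), though Ppara passed without frontal library 4 (adjusted p = 0.00979) and by limma-voom (-1.66, adjusted p = 0.0372). One of its 3 RefSeq promoter windows (chr6:115421816-115422115, plus strand), the one farthest downstream, held the C/EBP letters 2 times, at 215 and 16 bases before the start, and is shown because C/EBP factors are known regulators of this gene.
Pparg: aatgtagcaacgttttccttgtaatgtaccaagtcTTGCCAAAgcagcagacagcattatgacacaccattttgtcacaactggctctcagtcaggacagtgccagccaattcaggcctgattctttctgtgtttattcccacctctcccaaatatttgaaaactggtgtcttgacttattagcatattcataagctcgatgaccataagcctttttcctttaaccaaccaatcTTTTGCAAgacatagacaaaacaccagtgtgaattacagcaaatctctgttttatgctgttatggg

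Cebpa, which encodes the partner factor C/EBPα and is also known in granulocyte progenitors (chromosome 7, 35119293 to 35121928), was lower in calvaria. Levels were 7.29, 13.0 and 2.67 CPM in frontal and 8.18 and 9.51 CPM in parietal bone, against 15.5, 14.7 and 16.8 CPM in femur. No calvarial library reached the femur range, but the frontal libraries spread 4.87-fold. The log2 fold change was -0.91 ± 0.33 (adjusted p = 0.0328) for calvaria, -0.998 ± 0.38 (adjusted p = 0.0433) for frontal and -0.83 ± 0.42 (adjusted p = 0.118) for parietal bone. The calvarial call was lost under 9 of 16 alternatives (adjusted p up to 0.461), including the fit without any 1 of frontal library 1, parietal library 2, parietal library 4 or any femur library (adjusted p = 0.0611 to 0.0953). The frontal call was lost under 11 of 17, including the fit without any 1 library other than frontal library 2 (adjusted p = 0.0632 to 0.116), and parietal bone passed without frontal library 2 or 4 (adjusted p = 0.0384 and 0.0159). Markers of granulocyte progenitors summed to 2914 to 3920 CPM in calvaria and 1212 to 2051 CPM in femur, though Mpo among them overlapped (758 to 1588 and 575 to 1000 CPM). The part of that in the Cebpa values was not tested. Of its paralogs, Cebpb, Cebpd and Cebpg were lower in every calvarial library than in any femur library, with log2 fold changes of -1.57, -1.19 and -1.05. Cebpe, a factor of late granulocyte maturation, went the other way, at 26.8 to 41.7 CPM in calvaria and 8.25 to 23.5 CPM in femur (0.97 ± 0.28, adjusted p = 0.0104), and is named after its values were seen. An antisense gene, Gm45091, shares 51 bases of exon with Cebpa, and without a stated strand setting reads from those bases cannot be told apart.

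Each of the other lists held more lower than higher genes in calvaria against femur, but 61.0% of all genes were called there (29.6% higher and 31.4% lower). The share called was below that among the inhibitors, the lipid droplet genes and the paralogs, and close to it among the adipogenic factors. It was above that among the fatty acid genes, the signalling partners and the adipokine list, each of 7 to 15 tested genes. Of 14 tested adipogenic factors and cofactors, 3 were higher and 6 lower, with Srebf1, the sterol-responsive factor, at -1.65 and Rxra, the partner receptor of PPARγ, at -1.66. On that list Ebf1 was higher (0.98). Zfp467 stood at 4.11 to 4.97 CPM in calvaria and 2.33 to 2.64 CPM in femur, and Nr1h3 at 6.12 to 7.44 and 3.03 to 5.33 CPM. Of 10 tested inhibitors of fat cell formation, 5 were lower and the other 5 not called, the lower ones including Wnt10b (-3.30), Foxo1 (-0.89), Gata2 (-0.90) and Trib2 (-0.42). The Gata2 call was lost once the trend with length and GC was taken out (-0.13, adjusted p = 0.569) and that of Trib2 under 8 of 16 alternatives, among them the fits without frontal library 1, parietal library 4, femur library 1 or femur library 2 (adjusted p = 0.0574, 0.0887, 0.115 and 0.0792). In the list of lipid droplet and lipolysis genes 7 of 14 were lower and the other 7 not called, the lower ones including Pnpla2, the lipase that starts triglyceride breakdown (-1.38), Gpd1 (-2.05), Plin2 (-0.95) and Fitm2 (-2.29). Fatty acid uptake and synthesis genes had 3 of 15 higher and 9 lower, with Fasn, the fatty acid synthase, at -2.21, Acly at -1.07, the acyl-CoA synthetase Acsl3 at -3.12 and the malic enzyme Me1 at -3.42. Adipokines and other mature adipocyte genes had 7 of 13 tested, 1 higher and 4 lower. Thrsp was lower (-2.02) and Slc2a4, the insulin-responsive glucose transporter, was higher (1.01, adjusted p = 0.012), though not without parietal library 2 (0.84, adjusted p = 0.0575). Of 13 tested signalling partners of leptin, stem cell factor and adiponectin, 2 were higher and 8 lower, including Stat3 (-1.74), Ptpn1 (-1.31) and Socs3 (-1.37), and of 20 tested paralogs of the 10 genes 3 were higher and 7 lower. Among the signalling partners, Leprot lay the other way, at 95.9 to 117 CPM in calvaria and 47.3 to 50.9 CPM in femur. Zfp467, Nr1h3 and Leprot are named after their values were seen.

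By bone, frontal bone against femur gave 4 higher and 3 lower of 9 genes, where 55.7% of all genes were called (27.2% higher and 28.5% lower). Parietal bone against femur gave 5 higher and 1 lower, where 55.7% of all genes were called (27.1% higher and 28.6% lower). Both comparisons use the same femur libraries. The libraries did not overlap for 6 of 9 genes in the first (63.0% of all genes) and for all 9 in the second (72.0%). The median log2 fold change was -0.34 for frontal and 0.77 for parietal bone, against 0.02 and 0.01 over all genes. The count of calls was 4 for frontal bone without frontal library 4, femur library 2 or femur library 4, and 3 for parietal bone without parietal library 2.

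**Figure D4:**
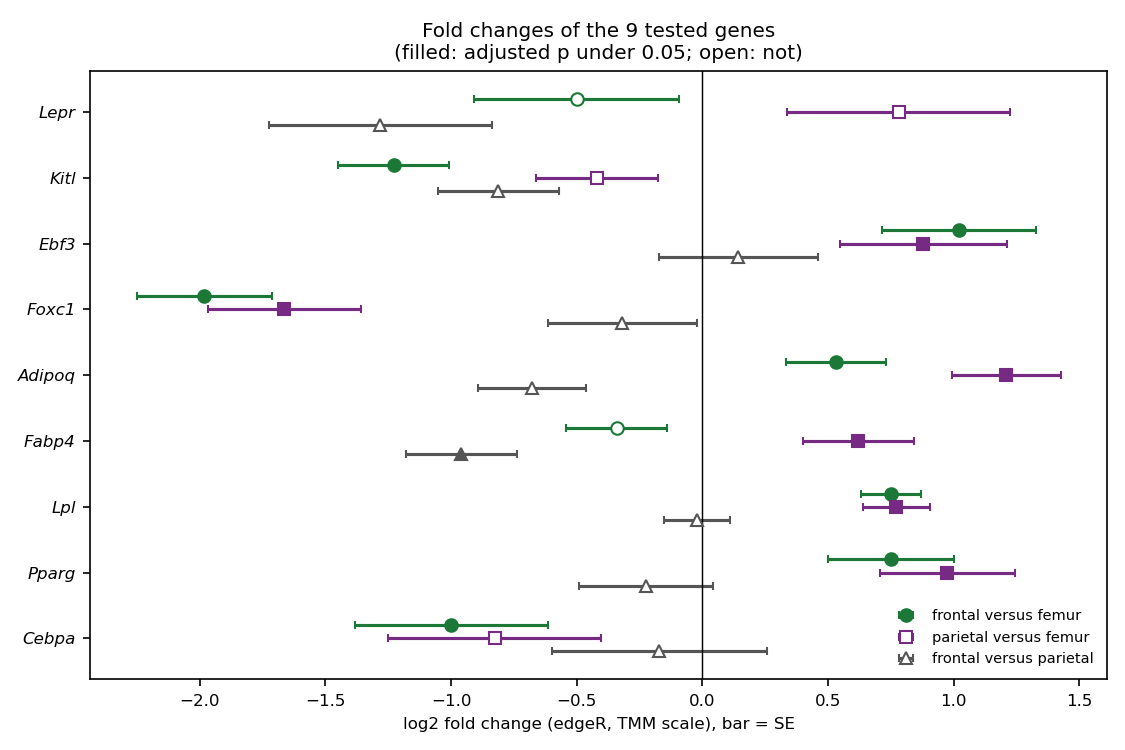
Log2 fold change ± SE of the 9 tested genes in frontal against femur (circles), parietal against femur (squares) and frontal against parietal bone (triangles); filled symbols passed an adjusted p under 0.05. Lpl lies at 0.75 and 0.77 against femur and at -0.02 between the calvarial bones, while Fabp4 is the only gene with a filled triangle (-0.96).

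Within the calvaria, frontal against parietal bone called 1 of the 9 genes, where 7.21% of all genes were called (3.91% higher and 3.29% lower). That gene was Fabp4, lower in all 3 frontal than in both parietal libraries (-0.96 ± 0.22, adjusted p = 0.0345), a call lost under 7 of 17 alternatives, among them the fits without frontal library 1 (-0.86, adjusted p = 0.144), frontal library 4 (-0.87, adjusted p = 0.0772), parietal library 2 (-0.82, adjusted p = 0.184), parietal library 4 (-1.02, adjusted p = 0.227) or femur library 2 (-0.96, adjusted p = 0.0574). Lepr (-1.28 ± 0.44, adjusted p = 0.103), Kitl (-0.81 ± 0.24, adjusted p = 0.0605) and Adipoq (-0.68 ± 0.21, adjusted p = 0.0699) likewise had every frontal library below every parietal one without passing. Such separation held for 4 of the 9 genes, against 47.5% of all genes. Without frontal library 2 those 3 genes passed, with Lepr at -2.06 (adjusted p = 0.000617), Kitl at -1.12 (adjusted p = 0.00753) and Adipoq at -0.86 (adjusted p = 0.0262). Without femur library 4 Kitl and Adipoq passed as well (adjusted p = 0.0424 and 0.042). Over all 17 alternatives Kitl passed under 6, Adipoq under 5 and Lepr under 2. The second for Lepr was limma-voom with all libraries (-1.48, adjusted p = 0.033). Of all genes, 1963 were called without frontal library 2 and 0 without frontal library 1, either parietal library or femur library 2, in place of 1118 (edgeR; 2520 to 4059 genes at an unadjusted p under 0.05 in those 4 fits, while DESeq2 called 2225 and limma-voom 1563 in all libraries). Ebf3, Foxc1, Lpl, Pparg and Cebpa had log2 differences of -0.32 to 0.14 with SE of 0.13 to 0.43, and their libraries overlapped.

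Compared per kilobase of the principal transcript, Fabp4 was the most abundant of the 10 in every bone, with 321 ± 126 CPM per kb in calvaria (SD, n = 5) and 295 ± 89.5 in femur (n = 3). Adipoq, Lpl and Lepr followed in calvaria at 44.8 ± 13.3, 37.4 ± 1.86 and 36.7 ± 21.9 CPM per kb, which do not differ beyond their spread. In femur Lepr was at 33.1 ± 3.76, Adipoq at 25.1 ± 5.91 and Lpl at 22.1 ± 1.79 CPM per kb, the last pair within its spread. Below these came Pparg at 11.9 ± 1.63 CPM per kb in calvaria and 6.54 ± 2.42 in femur, Kitl at 9.93 ± 3.64 in calvaria and 17.9 ± 3.73 in femur, and Foxc1 at 3.65 ± 1.14 in calvaria and 13.2 ± 2.76 in femur. Cebpa was at 3.10 ± 1.43 CPM per kb in calvaria and 5.97 ± 0.40 in femur, and Ebf3 at 1.31 ± 0.308 in calvaria and 0.689 ± 0.184 in femur. Plin1 was lowest in both, at 0.0206 ± 0.0307 CPM per kb in calvaria and 0.217 ± 0.236 in femur. Part of this order depends on the length used. Per kilobase of all merged exons Fabp4 was still the highest, at 64.1 CPM per kb in calvaria and 58.9 in femur, and Ebf3 and Plin1 the lowest, but in femur Adipoq (23.4) stood above Lepr (16.0), and Kitl (17.1) and Foxc1 (13.2) above Lpl (8.67).

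Relative to the endothelial markers of the same library, Adipoq, Fabp4, Lpl, Pparg and Ebf3 were higher in all calvarial than in all femur libraries, and Foxc1 was lower in all of them. Lepr, Kitl, Plin1 and Cebpa overlapped. The endothelial marker sum was itself lower in calvaria (251 to 318 CPM, against 594 to 718 CPM in femur). Adipoq had 141 to 254 counts per 1000 endothelial marker counts in calvaria and 34.7 to 57.4 in femur. These orders depend on the markers set against. Granulocyte progenitor marker sums were higher in calvaria. Per count of those markers, calvaria and femur overlapped for Adipoq, Fabp4, Lpl, Pparg and Ebf3, and Foxc1, Kitl and Cebpa were lower in all calvarial libraries. Osteocyte marker counts were themselves far lower in calvaria and mostly Dmp1 in femur. Per 1000 of them, every gene but Plin1 was higher in all calvarial libraries, Foxc1 for example at 9.47 to 26.4 in calvaria and 1.55 to 2.65 in femur. Adipoq counts per Lepr count were 0.376 to 0.935 in calvaria and 0.202 to 0.348 in femur, without overlap. Per Lepr count, Kitl, Ebf3, Fabp4, Lpl, Plin1, Pparg and Cebpa overlapped, and only Foxc1 and Adipoq did not. Adipoq counts per Cxcl12 count were 0.0291 to 0.0456 in calvaria and 0.0344 to 0.0610 in femur, with overlap, and Lpl counts per Cxcl12 count were 0.0868 to 0.119 in calvaria and 0.134 to 0.147 in femur, all lower in calvaria. The 3 genes whose profile over the 8 libraries was nearest to that of Lepr were Ppfia2, Rims3 and Abca9, with mean absolute differences of 0.127, 0.130 and 0.135 in log2 CPM after centring each gene. For Adipoq they were Gm15536, Gm6542 and Zfp54 (0.0658, 0.0888 and 0.0902).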

How the data were processed

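The authors deposited raw counts per gene for all 8 libraries, whole numbers with no normalization, and these counts were tested here. Libraries were made from total RNA by Nextera XT and sequenced from both ends, per the labels' protocols. The submitters' processing notes name STAR 2.5.2a, edgeR, limma, DESeq2 and the builds mm10 and GRCm38.p3. What counted the reads, with which strand setting and annotation, is not given in the sources used here. The deposited filtered counts and scaled values were not used. The 92 spike-in rows were left out. Symbols matched 42462 of 43346 genes, and positions and lengths are from GENCODE M21 (GRCm38).

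Counts were analysed with edgeR 4.0.16 in R 4.3.3: filterByExpr (15511 genes kept), TMM scaling, and a robust quasi-likelihood fit with the 3 bones as groups over all 8 libraries (5 residual degrees of freedom, biological coefficient of variation 18.6%). The spread is shared because the parietal bone has 2 libraries. Calvaria is the mean of the frontal and parietal coefficients, and SE is the size of the fold change over the root of F. Chi-square per degree of freedom between libraries of 1 bone was at least 7.83, above sampling noise. The step was tested on simulated data with few changed genes, as many up as down. That setting does not test it under a shift in composition as wide as that between these bones. Alternatives were other scalings, no filter, DESeq2 1.42.0, limma-voom (limma 3.58.1), fewer libraries, a replicate block, and an offset for each library's trend with length and GC (99.51% of tested genes had both values). The genes and lists were chosen with earlier results of these data known. Companion genes were named by rule: per list the 4 with the smallest p in calvaria against femur, plus Cxcl12, Cfd, Kit, Cd36, Gpihbp1 and relatives of the 10 genes. Promoters are RefSeq's on GRCm38.p6, found for 8 of the 10 genes.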

Additional observations from a re-analysis of the deposited data

Results flagged for a closer look

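Fabp4 was flagged because it was the only one of the genes called between the calvarial bones: frontal minus parietal was -0.96 on the log2 scale (adjusted p = 0.0345 by edgeR), with all 3 frontal libraries below both parietal ones. That p-value is what made the flag. Lepr, Kitl and Adipoq had the same separation without passing, and the Fabp4 call was lost under 7 of 17 alternatives. Of the 9 genes checked, none had a calvarial library far from the other 4 by Dixon's criterion, which flags about 1 group in 20 by chance. The criterion looks only at the lowest and highest library of the pooled bones. It could thus not flag frontal library 2 for Lepr, which lay between the other frontal and the parietal libraries.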

How the results depend on the processing

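Against femur, Kitl, Foxc1, Lpl and Pparg kept direction and call in calvaria under all 16 alternatives. With the length and GC trend removed, 4 genes were called for frontal bone against femur, 0 between frontal and parietal bone, and 119 of all genes there. Signs changed in that fit for Fabp4 in calvaria (-0.054), Adipoq in frontal bone (-0.040), and Ebf3 (-0.029) and Lpl (0.12) between frontal and parietal bone. Between those bones the genes called were 2 with upper quartile scaling, 2 with only the libraries compared, and 3 each with no filter, DESeq2 and limma-voom, and the count over all genes was 1904 with no filter and 2225 with DESeq2. Lpl there was 0.055 without a composition factor, 0.017 with no filter and 0.0092 with only the libraries compared. Fabp5 in calvaria was 0.063 with upper quartile scaling. Leaving out 1 library in turn gave 4 to 6 called genes for frontal and 3 to 8 for parietal bone against femur, and 0 to 4 between frontal and parietal bone, where all genes called ran from 0 to 1963. In calvaria Lepr ran from -0.24 to 0.28 and Fabp4 from -0.014 to 0.39, and between frontal and parietal bone Ebf3 ran from -0.066 to 0.49, Lpl from -0.024 to 0.053 and Cebpa from -0.80 to 0.25. The causes were not tested. Scaling moved the median gene of calvaria against femur to 0.107 without a composition factor and 0.185 with upper quartile scaling, and without a composition factor 75.6% of the genes called between frontal and parietal bone were higher in frontal, against 54.3%. Libraries with the same number did not deviate together (correlations of -0.103 to 0.145), which gives no sign of pairing, but the labels do not say whether they share an animal and 2 parietal libraries mirror each other in such a check. With the number as a replicate block, 0 genes of the 9 and 0 of all genes (3504 at an unadjusted p under 0.05, edgeR) were called between frontal and parietal bone, Lepr in calvaria was -0.030, the calls of Trib2 and Agt in calvaria (adjusted p = 0.0766 and 0.0925) and Ebf3 in parietal bone (adjusted p = 0.095) were lost, and calvaria against femur called 8912 genes. Plin1, at 20 counts in all, did not pass the low-count filter at these depths.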
